A study of Mus musculus with 6 samples.

Results

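The interferon-stimulated genes described here are 41 genes listed by symbol, among them sensors of viral nucleic acid, transcription factors and antiviral effectors. A gene was taken where a probe set on the array carried its symbol and no other, and of several such probe sets the brightest over the 6 arrays was used. This gave 37 of the 41 genes, out of 19937 genes measured in all. Isg15, Gbp2 and Igtp had only probe sets that carry a second symbol and were not read, and no probe set carried the symbol Ifi44. Gene expression came from 6 one-colour mouse arrays of magnetically purified Thy1.2+ cells from E17.5 Rag1-/- fetal thymi. There were 3 groups of 2 arrays. The fresh group (Control-0h) was taken from thymi at 0 h. The DMSO group (Control-DMSO-40h) had 40 h of anti-CD3 stimulation with DMSO, and the 79-6 group (79-6-40h) had 40 h of anti-CD3 with 50 µM 79-6, an inhibitor aimed at the BTB domain of Bcl6, a transcriptional repressor. All groups carried the Rag1 deletion, and no cultured group lacked anti-CD3 or had neither DMSO nor compound. Per the series design, the stimulated thymi were fetal thymic organ cultures. The labels do not say whether embryos were pooled or whether replicates were separate litters or cultures, and p-values therefore cover no more than array-to-array spread.

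Interferons are cytokines made when cells sense viral nucleic acid. Type I interferons bind a receptor made of Ifnar1 and Ifnar2, whose Janus kinases phosphorylate Stat2 among other proteins. Stat2 and Irf9 are parts of a complex that binds the interferon-stimulated response element (ISRE) in target promoters, whereas interferon gamma acts through Ifngr1 and Ifngr2 on the gamma-activated site (GAS). The induced proteins detect viral RNA, block its translation and replication, and feed back on the pathway. In the thymus, interferon is made without infection, medullary epithelial cells being a known source.

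The promoters of the genes are shown first, because the ISRE is the letter pattern the family is known for. Genes were chosen by symbol and not by promoter sequence. A high share of ISREs is nevertheless built into a list of such genes, so the share below describes the list and not these arrays. RefSeq promoter sequences (GRCm38.p6, from 250 bases before to 50 after each start site) were at hand for 26 of the 37 genes. No entry was at hand for Dhx58, Ifi27, Mx1, Mx2, Oas2, Parp14, Parp9, Rtp4, Tor3a, Usp18 and Zbp1. The ISRE core searched was GAAANNGAAA on either strand, which reads TTTCNNTTTC on the other. It was found in 12 of the 26 genes (46.2%), against 607 of the 15613 tested genes with a promoter entry (3.89%) and 1131 of all 32851 promoters (3.44%). In 9 genes a core lay before the start site. Those 9 stretches follow, each read 5′ to 3′ along the gene's own strand with the core in capitals.

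Ifit1, chr19:34640770-34640828, plus strand: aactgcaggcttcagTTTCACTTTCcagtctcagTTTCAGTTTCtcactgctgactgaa
Ifit3, chr19:34583358-34583431, plus strand: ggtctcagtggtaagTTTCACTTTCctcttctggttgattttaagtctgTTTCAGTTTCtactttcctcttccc
Rsad2, chr12:26456548-26456587, minus strand: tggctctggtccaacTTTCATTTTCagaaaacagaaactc
Oas3, chr5:120777710-120777749, minus strand: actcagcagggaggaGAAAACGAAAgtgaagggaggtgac
Gbp3, chr3:142559984-142560029, plus strand: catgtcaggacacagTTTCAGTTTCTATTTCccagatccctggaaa
Irgm1, chr11:48871421-48871465, minus strand: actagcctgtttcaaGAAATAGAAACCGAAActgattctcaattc
Bst2, chr8:71537572-71537617, minus strand: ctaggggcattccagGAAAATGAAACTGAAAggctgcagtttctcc
Trim30a, chr7:104465205-104465244, minus strand: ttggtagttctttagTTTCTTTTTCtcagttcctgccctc
Stat2, chr10:128270261-128270300, plus strand: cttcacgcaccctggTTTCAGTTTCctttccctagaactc

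Ifit1 and Ifit3 each held 2 separate cores, and in Gbp3, Irgm1 and Bst2 the 2 cores overlap and share 4 bases. In Bst2 a GAS pattern also overlaps the first core. In Ddx58, Eif2ak2 and Ifih1 the core lay only after the start site. The GAS pattern TTCNNNGAA, which is the same on both strands, was found in 6 of the 26 genes (23.1%), against 1403 of the 15613 tested genes (8.99%) and 2726 of all promoters (8.3%). Irf1 and Irf8, a pair of transcription factors chosen for display after their values were seen because neither passed the test when all genes were fitted without an intensity trend, held GAS patterns and no ISRE core. Ifi35 and Ifit2 likewise held a GAS pattern and no ISRE core, and both were lower in DMSO than in fresh cells (below). Sp100, which did not pass in DMSO against fresh cells either, held neither pattern. A match of letters is a description of the window and not a measured binding site.

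Irf1, chr11:53769909-53769947, plus strand: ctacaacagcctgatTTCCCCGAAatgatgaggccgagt
Irf8, chr8:120736172-120736228, plus strand: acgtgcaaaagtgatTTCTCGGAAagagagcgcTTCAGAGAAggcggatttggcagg

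Setting the DMSO group beside the fresh group shows what differed after 40 h of stimulated culture. The interferon-stimulated genes fell nearly as a block. Of the 37 genes 34 were lower and 0 higher in DMSO at an adjusted p under 0.05 (limma, Benjamini-Hochberg over all 19937 genes), and 35 had an unadjusted p under 0.05. Among all genes tested 10.7% were called lower and 8.89% higher. The median change of the 37 was -1.20 on the log2 scale, against 0.02 over all genes, and 25 fell at least 2-fold. Only Irf1, Irf8 and Sp100 did not pass the test. Culture, time, vehicle and anti-CD3 cannot be told apart in this comparison. In bulk cells fewer cells of a type and less RNA per cell cannot be told apart either.

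The second comparison, 79-6 against DMSO, shows what differed between stimulated cultures with and without the compound. As above, in bulk cells more cells of a type and more RNA per cell cannot be told apart. Here 14 of the 37 genes were higher with 79-6 and 0 were lower (limma), against 2.38% of all genes higher and 1.98% lower. The differences were small. The 14 lay between 0.38 and 0.80 on the log2 scale, none of the 37 reached 2-fold, and their median was 0.34 against 0.02 over all genes. The estimate was above 0 for 36 of the 37 genes, Eif2ak2 being the exception, and 29 had an unadjusted p under 0.05. The 14 calls depended on single arrays. Without DMSO replicate 1, DMSO replicate 2 or 79-6 replicate 2, 0 of the 14 passed the test, with adjusted p from 0.0531 to 0.19, from 0.0776 to 0.207 and from 0.0632 to 0.196. Calls over all genes also dropped in those fits, from 475 higher to 70, 75 and 89. Without 79-6 replicate 1 the calls of Ifit3 (adjusted p = 0.0736), Gbp3 (0.0678), Xaf1 (0.0688) and Trim30a (0.0666) were lost, and without either fresh array those of Dhx58 (0.0813), Gbp3 (0.0542), Ifi35 (0.068) and Trim30a (0.0689). The estimates themselves stayed above 0 for 35 or 36 genes in each of these fits. Other settings added calls: 20 genes were called with dim genes left out and 21 with an intensity trend in the fit. With dim genes left out Mx2 was not in the fit, so the 20 are out of 36. Calls over all genes rose as well, from 475 higher of 19937 to 690 of 9969 without dim genes and 788 of 19937 with a trend. Both settings added Ifih1, Irf1, Oasl2, Ifit1, Rtp4 and Sp100, and the trend also added Dtx3l.

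In the third comparison, 79-6 against fresh cells, 30 of the 37 genes were lower and 0 higher (limma), against 13.9% of all genes lower and 12.0% higher. Their median change was -0.84, and 12 were lower by at least 2-fold. This comparison shares its fresh arrays with the DMSO against fresh one and its 79-6 arrays with the 79-6 against DMSO one, so the 3 sets of values are given side by side below and are not independent. The median log2 intensity over the 37 genes was 10.85 and 11.01 in the fresh arrays, 9.51 and 9.53 in DMSO, and 9.87 and 9.93 with 79-6. By this median the groups did not overlap, and 79-6 lay between the others. The median over all genes stayed between 7.07 and 7.15 on the 6 arrays.

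**Figure D1:**
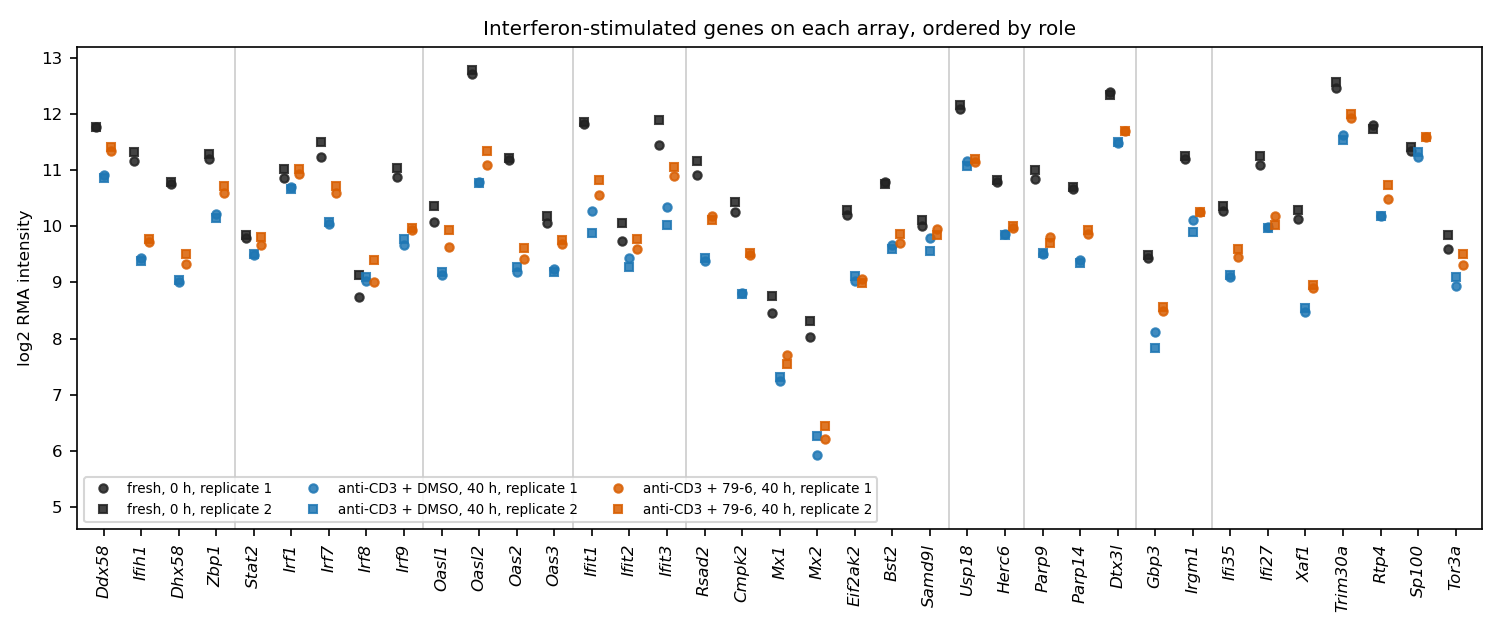
Log2 RMA intensity (y axis) of the 37 genes (x axis, grouped by role, with grey lines between roles) on each of the 6 arrays. Circles are replicate 1 and squares replicate 2. The black fresh points stand above the blue DMSO points for most genes, with the orange 79-6 points between them or close to DMSO, and levels of different genes come from different probes and cannot be compared.

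Among the sensors of foreign nucleic acid, all 4 fell from fresh to DMSO. Ifih1 (MDA5), which binds long double-stranded RNA, read 11.17 and 11.32 in the fresh arrays, 9.44 and 9.38 in DMSO, and 9.73 and 9.77 with 79-6. The fresh arrays were far above the rest and no groups overlapped. Its fall to DMSO was 3.57-fold (log2 change -1.84 ± 0.08 SE, adjusted p = 2.0e-05 by limma), the smallest adjusted p of the 37 genes, while its difference between 79-6 and DMSO was 0.34 ± 0.08 (adjusted p = 0.0598). Dhx58 (LGP2), a regulator of the other RNA sensors, fell by a similar 3.34-fold. Ddx58 (RIG-I), the sensor of RNA with a free triphosphate end, read 11.77 and 11.77 in fresh cells, 10.92 and 10.87 in DMSO, and 11.34 and 11.42 with 79-6. It fell 1.83-fold to DMSO and was 1.4-fold higher with 79-6 than with DMSO (0.48 ± 0.07 SE, adjusted p = 0.0173 by limma). Zbp1, a sensor of Z-form nucleic acid that can trigger cell death, fell 2.1-fold and was 1.39-fold higher with 79-6 (0.47 ± 0.08 SE, adjusted p = 0.0256 by limma). Dhx58 was also called higher with 79-6, by 0.38 ± 0.08 (adjusted p = 0.0482).

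The transducers and transcription factors divided. Irf7, which amplifies type I interferon production, read 11.24 and 11.50 in fresh cells, 10.04 and 10.08 in DMSO, and 10.59 and 10.72 with 79-6. Again the groups were apart in that order: Irf7 fell 2.48-fold to DMSO (-1.31 ± 0.10 SE, adjusted p = 2.0e-04 by limma) and was 1.51-fold higher with 79-6 than with DMSO (adjusted p = 0.0266). Irf9, the DNA-binding subunit of the ISRE-binding complex, read 10.89 and 11.04, then 9.66 and 9.78, then 9.93 and 9.97 in the same order. It fell 2.37-fold (-1.25 ± 0.09 SE, adjusted p = 1.1e-04 by limma), and its difference between 79-6 and DMSO, 0.23 ± 0.09, did not pass the test (adjusted p = 0.185). Stat2, its partner, moved little, from 9.80 and 9.85 to 9.49 and 9.50 in DMSO and to 9.67 and 9.82 with 79-6. The Stat2 fall to DMSO of 0.33 on the log2 scale was called (adjusted p = 0.0234), but not without fresh replicate 1 (0.0856), fresh replicate 2 (0.133), DMSO replicate 1 (0.104) or DMSO replicate 2 (0.0975).

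Irf1 and Irf8 were not called in any of the 3 comparisons, though Irf1 lay close to the threshold. Irf1, a factor of the interferon gamma response, read 10.87 and 11.03 in fresh cells, 10.70 and 10.67 in DMSO, and 10.94 and 11.02 with 79-6. Fresh and 79-6 arrays overlapped, with DMSO lowest, and its changes were -0.26 ± 0.08 to DMSO (adjusted p = 0.0656) and 0.29 ± 0.08 from DMSO to 79-6 (0.098). With dim genes left out Irf1 was called in both (0.0301 and 0.0437), as it was with an intensity trend (0.0193 and 0.0289). Other settings weakened it. With probe sets averaged its changes were -0.18 and 0.22 (adjusted p = 0.208 and 0.21). Arrays set to 1 median gave -0.20 and 0.24, and no call. A dimmer Irf1 probe set read 7.0 and 7.21 in fresh cells, 7.0 and 7.02 in DMSO, and 7.09 and 7.21 with 79-6. Irf8, a factor of myeloid and dendritic cell development, read 8.74 and 9.14, then 9.02 and 9.09, then 9.01 and 9.40 in the same order of groups. All 3 groups overlapped for Irf8, and its changes were 0.11 ± 0.16 to DMSO (adjusted p = 0.717) and 0.15 ± 0.16 from DMSO to 79-6 (adjusted p = 0.648).

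The 2-5A synthetase family, whose active members make the oligoadenylates that switch on RNase L, held some of the deepest falls. Oasl2, an oligoadenylate synthetase-like protein, read 12.72 and 12.79 in fresh cells, 10.79 and 10.77 in DMSO, and 11.09 and 11.34 with 79-6. Oas2 read 11.18 and 11.22, then 9.19 and 9.28, then 9.41 and 9.62. Both were far above the cultured arrays when fresh, and their falls to DMSO were 3.93-fold and 3.91-fold. With 79-6 neither passed the test against DMSO, at 0.43 ± 0.10 for Oasl2 (adjusted p = 0.0545) and 0.28 ± 0.09 for Oas2 (adjusted p = 0.138). Oasl1, a translational repressor of Irf7, and Oas3 fell less, by 2.1-fold and 1.89-fold. Both were higher with 79-6 than with DMSO, Oasl1 1.55-fold (adjusted p = 0.0437) and Oas3 1.43-fold (adjusted p = 0.0182). Oas3 read 10.06 and 10.18 in fresh cells, 9.24 and 9.18 in DMSO, and 9.69 and 9.76 with 79-6, so no groups overlapped. Against fresh cells Oasl1 and Oas3 remained lower with 79-6, by 0.44 and 0.40 on the log2 scale. Those calls were lost without fresh replicate 2 (adjusted p = 0.212 for Oasl1 and 0.0668 for Oas3), and that of Oasl1 also without 79-6 replicate 1 (0.153) or either DMSO array (0.0712).

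IFIT proteins bind viral RNA that lacks the host's cap marks. Ifit1 read 11.82 and 11.86 in fresh cells, 10.28 and 9.89 in DMSO, and 10.56 and 10.82 with 79-6. Its fall to DMSO was 3.37-fold (-1.75 ± 0.14 SE, adjusted p = 2.2e-04 by limma), and the difference to 79-6, 0.61 ± 0.14, did not pass (adjusted p = 0.0587) although the arrays did not overlap. Ifit3 read 11.46 and 11.89, then 10.34 and 10.02, then 10.90 and 11.06. It fell 2.82-fold and was 1.74-fold higher with 79-6 than with DMSO, the largest such difference among the 37 genes (0.80 ± 0.16 SE, adjusted p = 0.0427 by limma). Its call against fresh cells with 79-6, -0.69 ± 0.16 (adjusted p = 0.0186), was lost without fresh replicate 2 (0.0827) or either 79-6 array (0.0761 and 0.0502). Ifit2 fell least of the family, 1.46-fold (adjusted p = 0.0218). Leaving out fresh replicate 2 (0.111) or either DMSO array (0.0539 and 0.124) ended the call of Ifit2. Ifit1 and Ifit3 are the genes whose promoters held 2 separate ISRE cores above, whereas no core was found in that of Ifit2. Outside this family listed genes went the other way. No core was found for Oasl2 and Xaf1, which changed by -1.97 and -1.71 to DMSO, while Stat2 held a core and changed by -0.33.

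Other antiviral effectors fell in all 7 cases. Rsad2 (viperin), which makes a chain-terminating nucleotide, read 10.91 and 11.16 in fresh cells, 9.38 and 9.44 in DMSO, and 10.18 and 10.11 with 79-6. Cmpk2, its neighbour in the genome and the kinase that supplies its substrate, read 10.26 and 10.44, then 8.81 and 8.80, then 9.49 and 9.53. Both had tight cultured replicates and no overlap between any groups. Rsad2 fell 3.08-fold and was then 1.66-fold higher with 79-6 (0.73 ± 0.10 SE, adjusted p = 0.0123 by limma). Cmpk2 fell 2.92-fold and was 1.63-fold higher with 79-6 (0.71 ± 0.08 SE), with the smallest adjusted p of that comparison among the genes (0.00864 by limma).

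The Mx GTPases behaved alike in the first comparison and were not called in the second. Mx2 read 8.03 and 8.31 in fresh cells, 5.93 and 6.27 in DMSO, and 6.20 and 6.44 with 79-6. Its 4.21-fold fall was the largest of the 37 genes (-2.08 ± 0.15 SE, adjusted p = 1.3e-04 by limma), and its DMSO and 79-6 arrays overlapped. Mx2 was also the only one of the 37 with a mean under that of the median gene (6.86 against 7.13). Mx1 fell 2.51-fold. Eif2ak2 (PKR), the kinase that halts translation on binding double-stranded RNA, read 10.20 and 10.30, then 9.03 and 9.11, then 9.06 and 8.99. It fell 2.27-fold and its cultured groups overlapped, at -0.04 ± 0.08 between 79-6 and DMSO (adjusted p = 0.81). Bst2 (tetherin), which holds budding virions at the cell surface, fell 2.21-fold and differed by 0.16 ± 0.08 between 79-6 and DMSO (adjusted p = 0.325). Samd9l fell by only 0.37 on the log2 scale (adjusted p = 0.0356). Samd9l lost this call without either fresh array (0.0824 and 0.184) or DMSO replicate 2 (0.178), and with the arrays set to 1 median (0.0653).

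**Figure D2:**
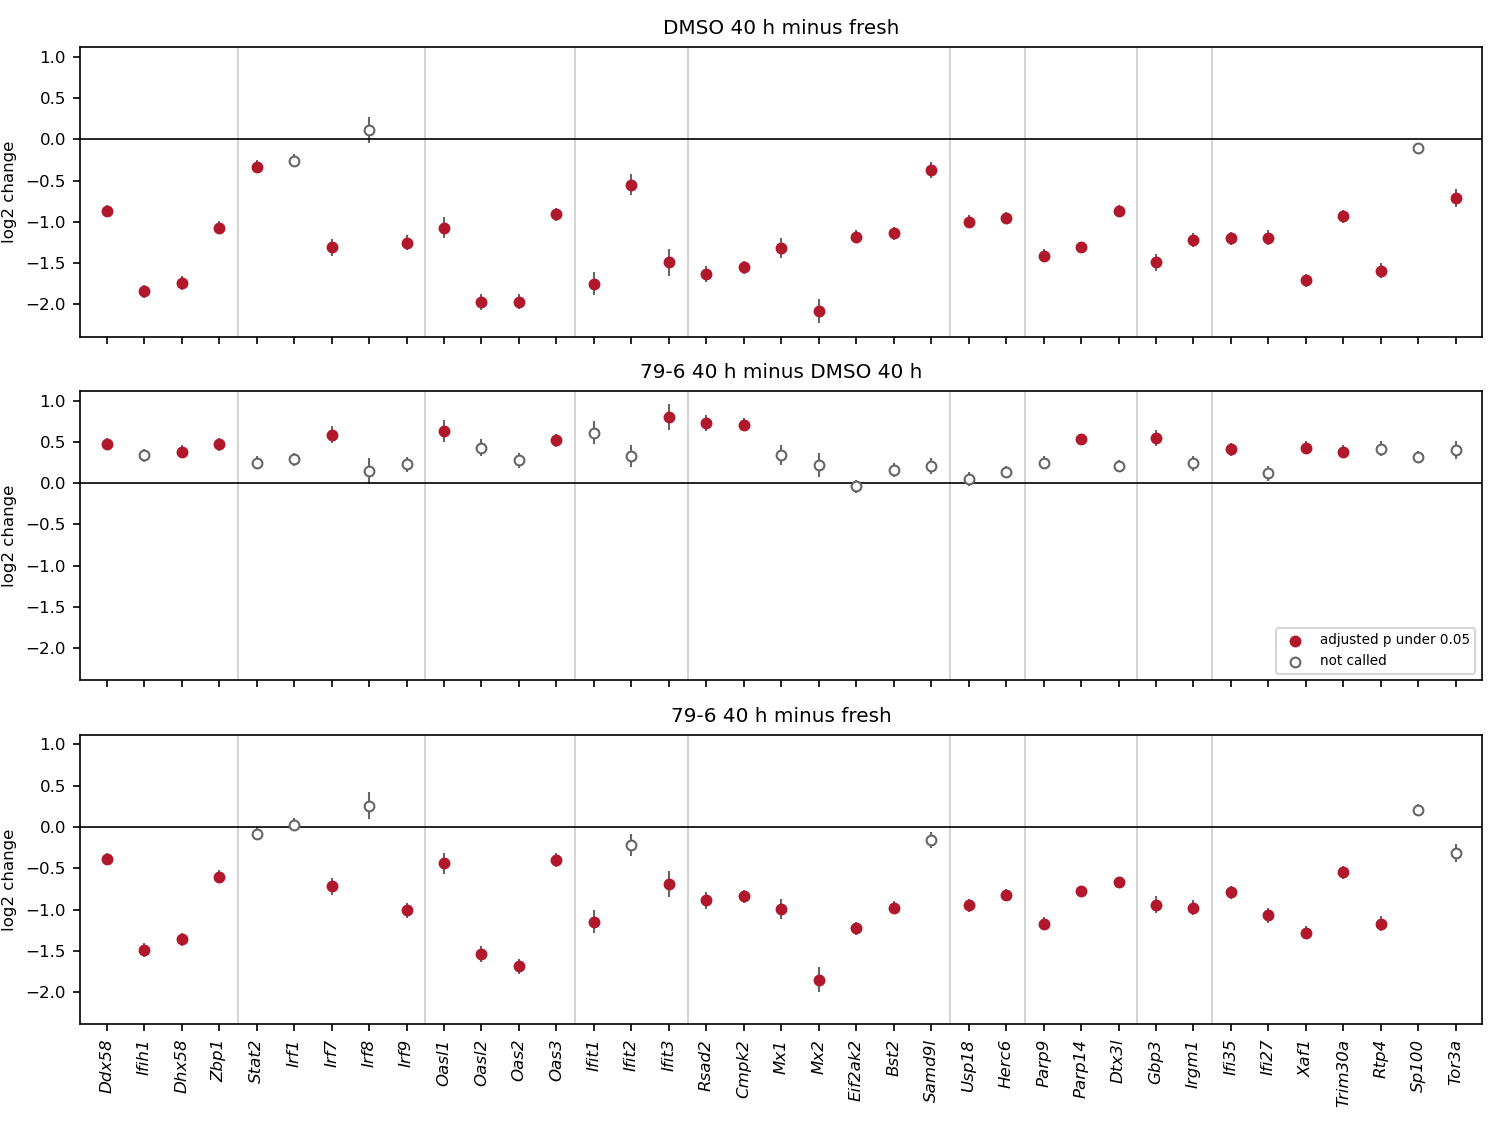
Log2 change (y axis) of each of the 37 genes (x axis, grouped by role) in the 3 comparisons, with bars of 1 standard error from limma. Filled points passed the test at an adjusted p under 0.05. In the upper panel 34 genes are filled and below 0, in the middle panel 14 are filled and above 0, and in the lower panel 30 are filled and below 0.

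ISG15 is a ubiquitin-like protein that is attached to others, and of this system 2 genes were read. Usp18, which removes ISG15 and also restrains the type I receptor, read 12.09 and 12.17 in fresh cells, 11.17 and 11.08 in DMSO, and 11.15 and 11.21 with 79-6. It fell 2.0-fold (SE 0.08 on the log2 scale, adjusted p = 1.9e-04 by limma), while the cultured arrays overlapped (0.05 ± 0.08, adjusted p = 0.753). Herc6, the main ISG15 ligase of the mouse, fell 1.94-fold and differed by 0.14 ± 0.07 between 79-6 and DMSO (adjusted p = 0.324). So neither gene was called with 79-6. All 3 genes of the next group, Parp9, its partner ubiquitin ligase Dtx3l and the related Parp14, fell, by 2.66-fold, 1.83-fold and 2.48-fold. Parp14 alone of them was called higher with 79-6, reading 10.66 and 10.70 in fresh cells, 9.40 and 9.34 in DMSO, and 9.87 and 9.93 with 79-6 (0.53 ± 0.07 SE, adjusted p = 0.0126 by limma). Parp9 and Dtx3l differed by 0.25 ± 0.08 and 0.21 ± 0.07 in that comparison (adjusted p = 0.159 and 0.149).

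Both interferon-inducible GTPases that were read fell. Gbp3, a guanylate-binding protein that attacks pathogen-containing vacuoles, read 9.43 and 9.49 in fresh cells, 8.11 and 7.83 in DMSO, and 8.49 and 8.56 with 79-6. It fell 2.81-fold and was 1.47-fold higher with 79-6 (0.55 ± 0.10 SE, adjusted p = 0.0351 by limma), with no overlap between groups. Irgm1, a regulator of the immunity-related GTPases, fell 2.33-fold and differed by 0.24 ± 0.09 between 79-6 and DMSO (adjusted p = 0.185). Both have overlapping ISRE cores close to the start site in the stretches printed above.

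Of the remaining 7 induced genes 6 fell to DMSO. Xaf1, a pro-apoptotic partner of the inhibitor XIAP, read 10.13 and 10.29 in fresh cells, 8.47 and 8.54 in DMSO, and 8.90 and 8.96 with 79-6, and fell 3.27-fold. Rtp4, a chaperone of G protein-coupled receptors, read 11.80 and 11.74, then 10.18 and 10.19, then 10.48 and 10.73, and fell 3.01-fold. In both, fresh arrays were highest and DMSO lowest without overlap. Ifi35 fell 2.29-fold, Ifi27 2.28-fold, Trim30a, a restraint on Toll-like receptor signals, 1.91-fold, and Tor3a 1.63-fold. With 79-6 Xaf1 was higher than with DMSO by 0.43 ± 0.08 (adjusted p = 0.0379), Ifi35 by 0.41 ± 0.08 (0.0437) and Trim30a by 0.38 ± 0.08 (0.0443), all by limma. Rtp4 (0.42 ± 0.09, adjusted p = 0.0548), Tor3a (0.40 ± 0.11, 0.108) and Ifi27 (0.12 ± 0.09, 0.519) did not pass.

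Sp100, a component of nuclear bodies, departed from this pattern. It read 11.35 and 11.42 in fresh cells, 11.23 and 11.32 in DMSO, and 11.60 and 11.59 with 79-6, so the 79-6 arrays were the highest. None of its comparisons passed the test with all genes fitted and no trend, with changes of -0.11 ± 0.07 to DMSO (adjusted p = 0.361), 0.32 ± 0.07 from DMSO to 79-6 (0.0556) and 0.21 ± 0.07 from fresh to 79-6 (0.0726). With dim genes left out or a trend the last 2 were called higher (0.022 and 0.0296, and 0.00825 and 0.0156). The 7 genes that were not called between 79-6 and fresh cells were Sp100, Irf1, Irf8, Stat2, Ifit2, Samd9l and Tor3a, and their estimates lay between -0.31 and 0.26.

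Listed genes with and without an ISRE core overlapped in their changes. The 12 with a core had a median change of -1.20 to DMSO and a range from -1.84 to -0.33. The 14 without one had a median of -1.01 and a range from -1.97 to 0.11. Outside the listed genes, 595 tested genes held a core in the same window, and their median change was 0.01, with 13.1% called lower. The 14992 without a core had a median of 0.02, with 10.6% called lower. Only the listed genes were left out of these 2 sets, so other interferon-induced genes can be among them. Between 79-6 and DMSO the medians were 0.43 with a core and 0.32 without among the listed genes, and 0.05 and 0.02 outside them. Outside the listed genes 34 of the 595 with a core (5.71%) were called higher with 79-6, and 332 of the 14992 without one (2.21%). That difference was not tested. A GAS pattern was held by 6 listed genes, and 4 of them, Bst2, Eif2ak2, Ifi35 and Ifit2, were lower in DMSO than in fresh cells. The median change of the 6 was -0.84. Among the 20 without the pattern 19 were lower, with a median of -1.23.

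The rest of the interferon pathway was read from a list of 93 genes sorted by role, of which 82 were measured. Of these 41 were lower and 10 higher in DMSO than in fresh cells (limma), against 10.7% and 8.89% of all genes. The higher count is little above the share of all genes, and 5 of the 10 were receptor genes. The higher count was 5 without DMSO replicate 2. Of 8 ligand genes 1 passed the test. Ifng, which encodes interferon gamma, read 7.68 and 7.84 in fresh cells, 6.60 and 6.67 in DMSO, and 6.68 and 6.86 with 79-6. It fell 2.18-fold to DMSO (adjusted p = 2.7e-04 by limma) and was not called between 79-6 and DMSO (0.13, adjusted p = 0.487). Ifnb1, the gene of interferon beta, stayed between 4.91 and 5.04 on the 6 arrays, in the low range of the array, where a change may not be read. Its change to DMSO was 0.02 (adjusted p = 0.88).

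Receptor genes moved the other way from the induced genes. Of 6 measured 5 rose in DMSO and 0 fell (limma), against 8.89% and 10.7% of all genes. Ifngr2 rose by 0.92 on the log2 scale, Ifngr1 by 0.69, Il10rb, shared by the type III interferon and interleukin-10 receptors, by 0.69, and Ifnar2 by 0.45. All 5 calls held in each fit without 1 array. Against DMSO only Il10rb was higher with 79-6, by 0.60 (adjusted p = 0.0173), a call lost without DMSO replicate 1 (0.105), DMSO replicate 2 (0.107) or 79-6 replicate 2 (0.102). Of the 3 Janus kinases measured, Jak1 rose by 0.29 in DMSO (adjusted p = 0.0248), a call lost without any 1 of the fresh or DMSO arrays (0.0872 to 0.154), and Jak2 (0.07) and Tyk2 (-0.12) were not called.

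Of 14 genes that lead to interferon production, 2 were higher and 3 lower in DMSO (limma), counts near the shares of all genes (8.89% and 10.7%) in so short a list. Irf5 rose by 0.84, and Trim25, an activator of RIG-I (-0.59), Unc93b1, which escorts nucleic acid-sensing Toll-like receptors (-0.47), and the adaptor Mavs (-0.39) fell. Of these calls only that of Trim25 held in every fit without 1 array. Irf5 was lost without either DMSO array (adjusted p = 0.0501 and 0.1), Unc93b1 without fresh replicate 2 or either DMSO array (0.0957, 0.0839 and 0.067), and Mavs without fresh replicate 1 or either DMSO array (0.0875, 0.0603 and 0.0659). With 79-6, Unc93b1 (0.53), the adaptor Myd88 (0.41) and the kinase Ikbke (0.36) were higher than with DMSO. Each of these 3 calls was lost without DMSO replicate 1, DMSO replicate 2 or 79-6 replicate 2 (0.121 to 0.192). The calls of Myd88 and Ikbke were also lost without 79-6 replicate 1 (0.069 and 0.0973), and that of Ikbke without either fresh array (0.0788).

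In the list of 9 genes that restrain the response, 1 rose and 2 fell to DMSO. In so short a list these counts are near the shares of all genes (8.89% and 10.7%). The RNA-editing enzyme Adar fell by 0.66 and Socs3 by 0.36, and Pias1 rose by 0.39. The call of Socs3 was lost without either fresh array (adjusted p = 0.109 and 0.0745) or DMSO replicate 1 (0.113), and that of Pias1 without fresh replicate 2 (0.0755) or DMSO replicate 2 (0.065). Socs3, a feedback inhibitor of cytokine receptors, was higher with 79-6 than with DMSO by 0.71 (adjusted p = 0.00768 by limma), and the phosphatase gene Ptpn6 by 0.50. Without DMSO replicate 1 or 79-6 replicate 2 the calls of Socs3 (0.062 and 0.0551) and Ptpn6 (0.126 and 0.111) were lost, and that of Ptpn6 also without DMSO replicate 2 (0.122).

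A further 42 interferon-induced genes outside the 41 were read. Of them 35 fell and 1, Slfn2, rose in DMSO (limma), against 10.7% and 8.89% of all genes. Their median change was -0.80. The call of Slfn2 was lost without fresh replicate 1 or either DMSO array. The deepest were Ube2l6, the conjugating enzyme for ISG15 (-2.36), Ifit3b (-1.94), Ddx60 (-1.78) and the GTPase Iigp1, which fell 4.01-fold. With 79-6, 7 of the 42 were higher than with DMSO and 0 lower, against 2.38% and 1.98% of all genes. Ifitm1, a membrane protein that blocks viral entry, was higher by 1.04, Slfn5 by 0.86, the chemokine Cxcl10 by 0.79 and Slfn1 by 0.78. Without DMSO replicate 1, DMSO replicate 2 or 79-6 replicate 2 the 7 became 2, 1 and 2. Slfn5 kept its call in each fit without 1 array, and Ifitm1 lost it only without DMSO replicate 2 (adjusted p = 0.0512). Cxcl10 and Slfn1 lost theirs without any 1 of the 4 cultured arrays (0.0834 to 0.207 and 0.051 to 0.208). Ifitm1 read 12.61 and 12.78 in fresh cells, 12.13 and 12.10 in DMSO, and 13.04 and 13.28 with 79-6, so here the 79-6 arrays stood above the fresh ones too.

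**Figure D3:**
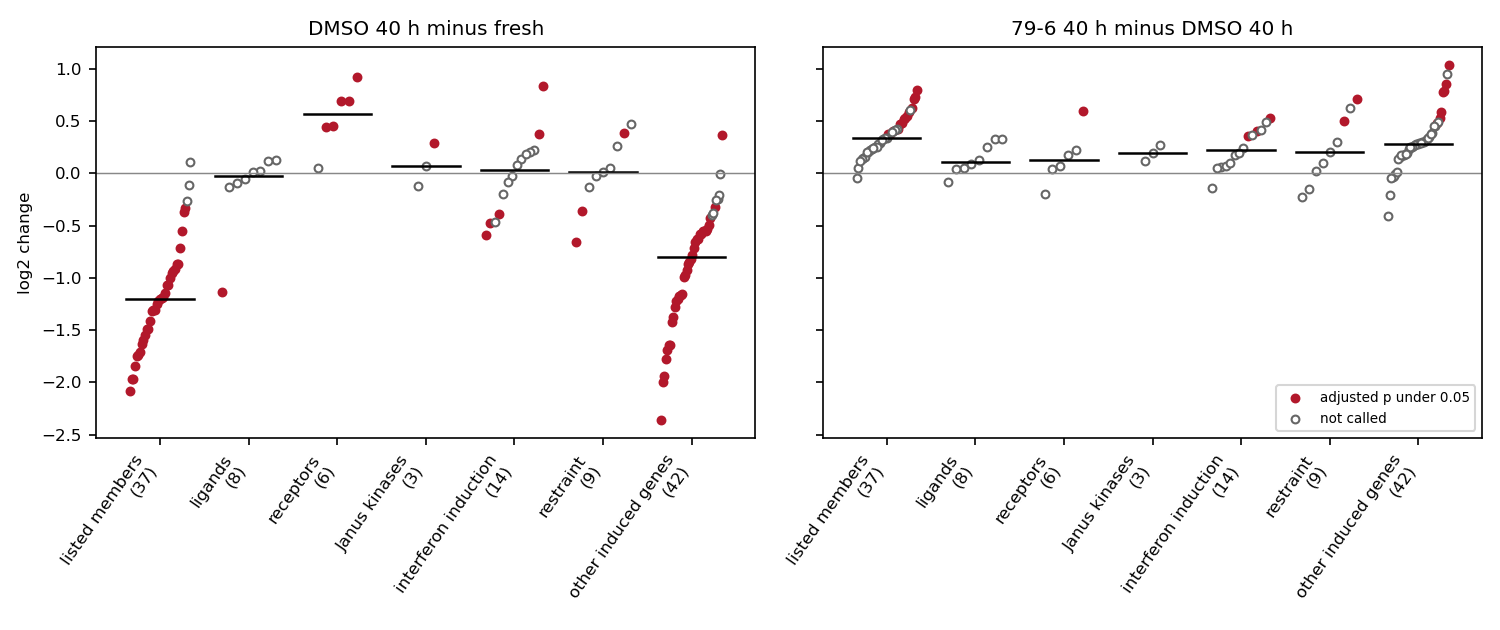
Log2 change (y axis) of the 37 listed genes and of the other measured interferon pathway genes by role (x axis, number measured in brackets), for DMSO minus fresh and for 79-6 minus DMSO. Filled points passed the test at an adjusted p under 0.05 and black lines are list medians. The 5 receptor genes that rose stand above 0 in the left panel, where the induced genes lie mostly below it.

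The purified cells carried the T-lineage markers of their label. Of 12 such genes measured, 6 were higher and 5 lower in DMSO than in fresh cells, and their summed intensity was 59157 to 60982 in the fresh arrays, 43154 to 44309 in DMSO and 45869 to 47372 with 79-6. Il2ra (-1.94) and Ptcra (-1.86) fell most to DMSO, and Cd2 (3.35) and Cd5 (2.23) rose most, so the sum is not a measure of T-lineage cell number. Markers of other cell types also changed, in different directions. For every marker list, the shares of all genes from fresh to DMSO were 8.89% higher and 10.7% lower. Between 79-6 and DMSO they were 2.38% higher and 1.98% lower. Of 16 markers of thymic epithelium 14 fell and 0 rose in DMSO, Cdh1 by 2.34 and Tbata by 1.66. Their summed intensity was 14111 to 14616 in fresh arrays, 4683 to 6786 in DMSO and 6111 to 6315 with 79-6. Between 79-6 and DMSO 0 of 16 were called. At those shares of all genes, 0 calls in so short a list is no sign that these markers stayed level.

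Macrophage and dendritic cell markers moved against the first fall and along with the second difference. Of 19 measured 6 rose to DMSO, led by Lyz2 (3.88) and Adgre1 (1.63), and 3 were higher with 79-6 than with DMSO, led by Itgax (1.14) and C1qa (0.98). The 6 became 10 without fresh replicate 2 and 4 without DMSO replicate 2. The 3 became 8 without either fresh array, 1 without 79-6 replicate 1, and 0 without DMSO replicate 1 or 79-6 replicate 2. The calls of Itgax and C1qa were also lost without DMSO replicate 2 (adjusted p = 0.0635 and 0.164). Their summed intensity was 9054 to 12895 in fresh arrays, 21753 to 23997 in DMSO and 30064 to 33077 with 79-6. Lyz2 alone went from 446 and 751 in fresh arrays to 8440 and 8597 in DMSO, so it made up most of the rise to DMSO, and 13 of the 19 were not called there. Without Lyz2 the sum was 8608 to 12144, then 13157 to 15557, then 20710 to 22025. Of 12 granulocyte and mast cell markers 6 also rose to DMSO, led by Mmp8 (4.03) and S100a8 (2.03), and 1, Cpa3, fell (-1.61). Between 79-6 and DMSO 1 of the 12 was higher and 3 lower.

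Markers of natural killer and innate lymphoid cells fell in 7 of 13 cases to DMSO, among them Gzmb (-2.28) and Xcl1 (-1.42), and 1, Gzma, rose 2.01-fold (adjusted p = 1.1e-04 by limma). The count that fell was 4 without fresh replicate 2 or DMSO replicate 2. With 79-6, 5 were higher than with DMSO and 1, Gzma, lower, Gzmb being higher by 1.13 and Nkg7 by 1.12. The 5 became 2 without DMSO replicate 1 or 79-6 replicate 1, and 1 without DMSO replicate 2 or 79-6 replicate 2, and Gzmb lost its call without DMSO replicate 2 (0.107), 79-6 replicate 1 (0.0544) or 79-6 replicate 2 (0.105). Of 8 plasmacytoid dendritic cell genes measured 3 fell and 2 rose to DMSO, and 0 were called between 79-6 and DMSO. In a list of 8 genes, 0 calls is near the shares of all genes there (2.38% and 1.98%). Spib (-1.99), Bcl11a (-1.04) and Tcf4 (-0.80) fell, and Ccr9 (2.42) and Pacsin1 (0.40) rose. The other 3, Siglech (0.33), Cox6a2 (-0.15) and Ly6d (-0.22), were not called. In bulk cells with a T-lineage label, changes in these 8 genes cannot be assigned to plasmacytoid cells. The summed intensity of the 8 was 9361 to 9665 in fresh arrays, 11640 to 12417 in DMSO and 13592 to 14544 with 79-6. That rise went with Ccr9, whose mean log2 intensity was 10.36 in fresh arrays and 12.78 in DMSO. For the 37 interferon-stimulated genes the summed intensity was 78785 to 84652 in fresh arrays, 36410 to 37445 in DMSO and 46070 to 48975 with 79-6. No marker is at 0 on these arrays, since every probe set has a background signal. The part of these cell types in the changes of the interferon-stimulated genes was not tested.

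**Figure D4:**
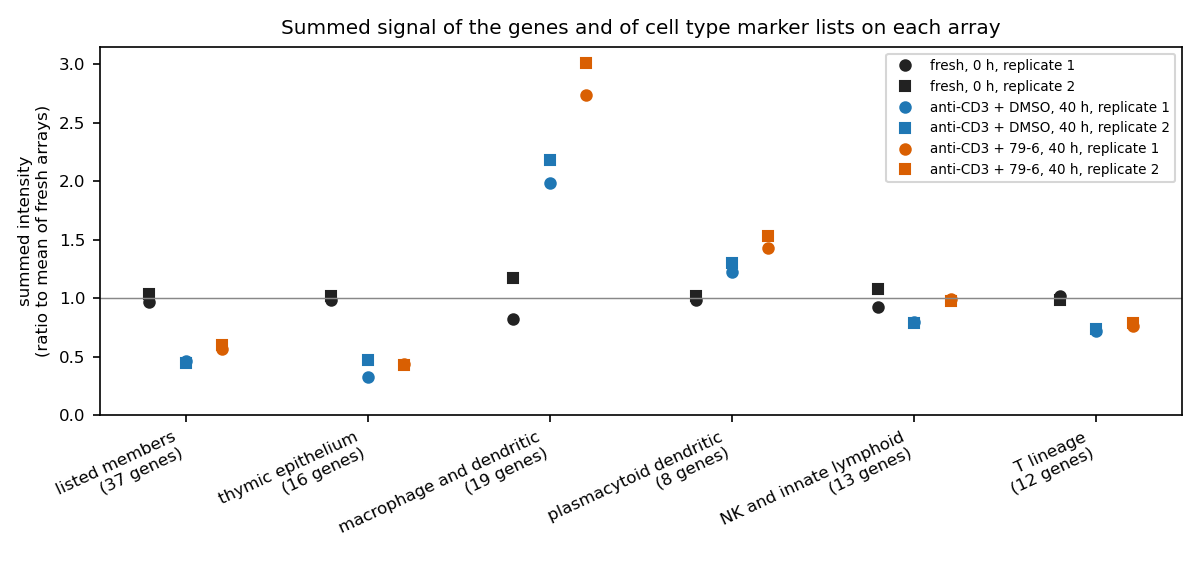
Summed linear intensity of the 37 genes and of 5 marker lists on each array (y axis, as a ratio to the mean of the 2 fresh arrays; x axis, lists with the number of genes measured). Circles are replicate 1 and squares replicate 2. The interferon-stimulated genes and the thymic epithelial markers are lower in both cultured groups than in fresh cells, and the macrophage and dendritic markers are higher.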

How the data were processed

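The authors deposited intensity values on a linear scale, which they had made by RMA in the R package oligo, per the submitters' processing notes. Their versions and the genome build are not stated there. RMA sets all arrays to the same distribution, so a shift of all genes would not be seen. The design had assumed log2 values, so log2 was taken first. Symbols came from the platform annotation, and 21640 of 34760 probe sets carried 1 symbol. Probe sets of related genes (Oas, Ifit, Mx, Gbp) can read each other's RNA. Array medians lay between 99.3 and 103.6. Arrays give no counts, and their number limits the precision.

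A limma model (3.58.1, R 4.3.3) gave each group its mean over all 6 arrays, with 3 residual degrees of freedom and a prior of 4.24. Tests were two-sided, p-values were adjusted by Benjamini-Hochberg across 19937 genes, and 0.05 was the threshold. The fit was tested on simulated data. Errors are limma standard errors (SE). Levels are log2 intensities and are not compared between genes. Alternatives were a replicate block, arrays set to 1 median, dim genes left out, the mean of probe sets, an intensity trend, only the 2 groups compared and leaving out each array. The genes, lists and tests were chosen with earlier results of these data known. Named genes were all listed ones read, and from other lists the called ones with the largest change (up to 4 per pathway list and 2 per marker list). Slfn2, Ifnb1, Gzma, the marker sum without Lyz2, the minor kinases and the Irf1 and Irf8 promoters were added after values were seen. The named T-lineage and plasmacytoid dendritic cell genes were also added then.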

Additional observations from a re-analysis of the deposited data

How the results depend on the processing

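From fresh to DMSO the count of lower genes was 33 to 35 under the alternatives that kept all arrays compared and 31 to 34 without 1 array; 31 of the 34 calls held in every alternative. From fresh to 79-6 it was 29 to 31 and 27 to 30, with 27 of 30 held, and 1 gene, Sp100, was called higher with dim genes left out or with an intensity trend. The median change there was -0.93 without fresh replicate 1 and -0.77 at the other end of the fits without 1 array. Between 79-6 and DMSO the count of higher genes was 10 to 21, and 0 to 12 without 1 array, where groups of 1 array borrow the spread of the others; no call held in every alternative. Arrays set to 1 median gave 684 lower and 456 higher over all genes in that comparison in place of 394 and 475, and 1716 lower and 2388 higher from fresh to DMSO in place of 2129 and 1773. The replicate block gave 34 lower to DMSO, 13 higher with 79-6 against DMSO and 31 lower with 79-6 against fresh; same-numbered arrays correlated at 0.0036, 0.0948 and -0.074, so the numbers were not taken as pairs. Signs turned without 1 array for Irf8 (range -0.09 to 0.31 from fresh to DMSO and -0.04 to 0.35 between 79-6 and DMSO) and Irf1 (range -0.05 to 0.11 from fresh to 79-6, with -0.01 without 79-6 replicate 2), which were not called in these comparisons without 1 array. The 82 other pathway genes had 5 to 10 higher from fresh to DMSO without 1 array. Between 79-6 and DMSO 2 to 14 were higher without 1 array, 26 with dim genes left out and 27 with a trend, and 1 was lower with 1 median and 2 with a trend. With probe sets averaged, Socs3 was not called from fresh to DMSO (adjusted p = 0.215). The causes were not tested.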
